A study of Rattus norvegicus with 15 samples.

Results

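Cell cycle and mitosis genes were followed across 15 rat mammary tumours raised after 3 early-life zinc diets. A set of 57 genes was listed: 5 that act at the G1/S transition, 14 of DNA replication and nucleotide supply, and 38 of mitosis. A gene entered the tests when at least 1 of its probes was well above the local background on 5 or more of the 15 arrays, and its brightest such probe stood for it. Of the 57 genes, 44 passed, with 61 probes between them, out of 8378 named genes tested on the array. They were 28 of the 38 mitosis genes, 12 of the 14 replication genes and 4 of the 5 G1/S genes. No probe was matched to 9 genes (Mcm5, Bub1b, Melk, Top2a, Cenpe, Ndc80, Nusap1, Anln and Ect2), and 4 more (Ccne2, Cdc6, Cdc25b and Hmmr) had probes that were too dim. The genes just inside the filter, Fam83d and Tk1, were well above background on 5 arrays with mean levels of -2.86 and -2.58. The genes just outside it, Cdc25b and Cdc6, were so on 3 arrays with mean levels of -2.96 and -2.52. Levels throughout are log2 intensities minus the 75th percentile of the same array, so a level can be compared between tumours for 1 gene but not between genes.

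The tumours came from female Sprague-Dawley rats, aged 180 days by the age label and the design text, although the description label of the samples names postnatal day 21. Their dams, 16 in each diet group, ate chow with 3 mg zinc per kg (deficient), 35 mg per kg (adequate) or 180 mg per kg (supplemented) from gestation day 10 to weaning on day 21, and the daughters kept the diet of their dam to day 51. Samples labelled negative control are taken here as the adequate group, since the labels name the other diets, and are called control. All of them, the control daughters included, then received DMBA (7,12-dimethylbenz[a]anthracene), a carcinogen that induces mammary tumours in rats, as 1 intragastric dose of 50 mg per kg, and every group ate the adequate diet until day 180. Tubular or papillary tumours were profiled on 1-colour arrays, 5 per diet; no mammary gland free of tumour was analysed here. Whether tumours of a group came from separate rats or litters is not stated in the labels; p-values here cover only the spread between the tumours profiled, which may be partly technical. Of the luminal epithelial marker genes, 10 of 11 were tested (all but Esr1), and all 10 were well above background on all 15 arrays. So were all 6 basal epithelial and all 5 fibroblast genes tested. None of 6 B-cell and plasma-cell markers was tested, which can mean a dim probe or no matched probe. Array brightness varied, with the 75th percentile of intensity between 50.7 and 177 and between 13854 and 24009 of 43379 spots well above background. The 4 slides each held all 3 diets.

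A dividing cell passes through ordered switches. Cyclin D with CDK4, and cyclin E with CDK2, release E2F factors from the retinoblastoma protein, which switches on genes for the MCM helicase, the DNA clamp and deoxynucleotide synthesis. Later, the MuvB complex with MYBL2 and FOXM1 switches on genes for cyclin B, CDK1, the polo-like and Aurora kinases, the spindle kinesins and the kinetochore. Bulk tumour RNA mixes cells that cycle with cells that do not, so fewer cycling cells and less RNA per cycling cell cannot be told apart here.

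The DNA elements through which these switches act were looked for in the promoters, taken from RefSeq on build GRCr8 as 250 bases before to 50 after each start site. The table held 45 of the 57 genes; Ccnd1, Ccne2, Cdc6, Mcm4, Rrm2, Ccna2, Aurkb, Ube2c, Pbk, Foxm1, Tpx2 and Racgap1 were not among them. The motifs were the cell cycle homology region (CHR) of late cell cycle genes, TTTGAA, the CCAAT box bound by NF-Y, CCAAT, and the E2F site, TTTCGCGC or TTTGGCGC, each on both strands. The promoters of the mitosis genes Fam83d (chr3:167841542-167841841, plus strand) and Ccnb1 (chr2:33655176-33655475, minus strand) and of the replication genes Tyms (chr9:120776034-120776333, minus strand) and Tk1 (chr10:103544728-103545027, minus strand) are shown because these genes had the smallest p of their class between supplemented and control tumours. Each is printed 5′ to 3′ on the strand of the gene, with motif matches in capitals.
Fam83d: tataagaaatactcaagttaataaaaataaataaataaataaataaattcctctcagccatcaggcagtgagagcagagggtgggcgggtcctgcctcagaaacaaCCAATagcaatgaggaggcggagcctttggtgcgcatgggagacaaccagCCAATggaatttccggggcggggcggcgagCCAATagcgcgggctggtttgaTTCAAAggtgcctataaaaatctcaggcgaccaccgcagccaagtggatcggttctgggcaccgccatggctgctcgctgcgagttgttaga
Ccnb1: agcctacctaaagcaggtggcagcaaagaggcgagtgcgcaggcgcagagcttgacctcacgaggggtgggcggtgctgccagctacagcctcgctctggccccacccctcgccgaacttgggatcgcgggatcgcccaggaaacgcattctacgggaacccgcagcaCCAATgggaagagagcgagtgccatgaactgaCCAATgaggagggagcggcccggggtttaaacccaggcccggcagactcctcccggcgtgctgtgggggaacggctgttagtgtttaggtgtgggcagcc
Tyms: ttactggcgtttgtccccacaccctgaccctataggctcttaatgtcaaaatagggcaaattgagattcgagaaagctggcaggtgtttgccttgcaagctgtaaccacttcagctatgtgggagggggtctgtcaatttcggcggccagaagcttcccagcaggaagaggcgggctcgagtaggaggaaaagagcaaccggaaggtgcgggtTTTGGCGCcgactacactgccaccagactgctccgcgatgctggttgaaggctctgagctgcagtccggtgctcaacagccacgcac
Tk1: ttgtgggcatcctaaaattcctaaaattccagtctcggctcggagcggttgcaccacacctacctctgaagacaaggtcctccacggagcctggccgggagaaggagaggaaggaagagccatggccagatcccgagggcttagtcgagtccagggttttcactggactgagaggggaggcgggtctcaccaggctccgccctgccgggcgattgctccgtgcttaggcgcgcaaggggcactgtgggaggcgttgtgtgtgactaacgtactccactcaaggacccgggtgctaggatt

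Fam83d, which carries casein kinase to the spindle, had a CHR on the reverse strand starting at position -42 from the start site and 3 CCAAT boxes at -144, -94 and -64. Ccnb1, which encodes cyclin B1, the partner of CDK1 at entry into mitosis, had CCAAT boxes at -82 and -50 and no TTTGAA in the window. Tyms, which encodes thymidylate synthase, had an E2F site at -37. Tk1, which encodes thymidine kinase, had none of the letters searched. Among tested genes with a promoter, the CHR was present in 13 of 21 mitosis genes (61.9%) and in 1 of 10 replication genes, against 18.07% of all 27457 promoters. The E2F site was present in 2 of 21 mitosis genes and 5 of 10 replication genes, against 0.8413% of all promoters. CCAAT was common in both classes, in 14 of 21 mitosis genes and 6 of 10 replication genes, against 37.74% of all promoters. These are matches of letters, and binding was not measured. In the 150 bases nearest the start site, the mitosis genes kept 13 of 21 promoters with a CHR, against 8.009% of all promoters.

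**Figure D1:**
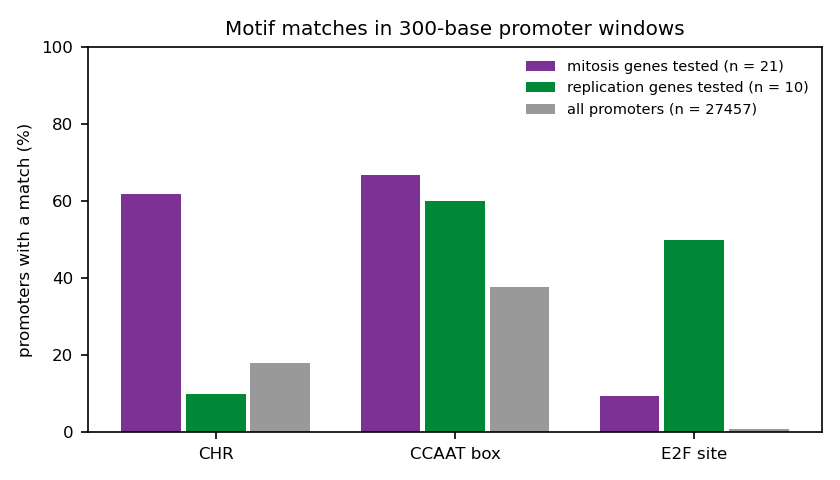
Share of 300-base promoter windows (y axis, percent) that hold the CHR, the CCAAT box or the E2F site (x axis), in tested mitosis genes (n = 21), tested replication genes (n = 10) and all promoters of the table (n = 27457). Of the CHR bars that of the mitosis genes is tallest, at 61.9%, and of the E2F bars that of the replication genes.

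The sites of other genes described below show how the letters sit in each class; the motif is in capitals, with its flanks in lower case. Mitosis genes are given with their CHR and replication genes with their E2F site.
Cdk1 CHR (chr20:19265261-19265298, plus strand): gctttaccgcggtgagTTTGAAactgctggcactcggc
Plk1 CHR (chr1:186147648-186147685, plus strand): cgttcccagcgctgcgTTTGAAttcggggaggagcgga
Birc5 CHR (chr10:103572122-103572159, plus strand): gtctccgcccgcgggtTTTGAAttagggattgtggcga
Nuf2 CHR (chr13:84255549-84255585, minus strand): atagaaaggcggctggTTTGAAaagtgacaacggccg
Mcm7 E2F site (chr12:22163207-22163246, minus strand): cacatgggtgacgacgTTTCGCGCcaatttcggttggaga
Mcm2 E2F site (chr4:122918085-122918124, minus strand): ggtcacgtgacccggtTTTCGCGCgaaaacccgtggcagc
The CHR matches of Birc5, Plk1 and Nuf2 began at -8, 6 and 29, and that of Cdk1 at -16. Cdk1 also held a second CHR at -72 and an E2F site at -133. Mcm2, a helicase subunit, was the only tested replication gene with a CHR, at -215 and -175, and its E2F site at -14 overlapped a second match on the reverse strand at -10.

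The tumours differed widely in mitosis gene levels, and they did so within every diet. To place a tumour, each gene's level was taken as its deviation from that gene's mean over the 15 tumours, and deviations were averaged. Over the 28 mitosis genes the mean deviation was -0.27, 0.79, -1.003, 0.31 and 0.062 in deficient tumours 1 to 5, 0.37, -0.22, 1.37, 0.39 and -0.17 in control tumours 1 to 5, and -1.05, 0.021, -0.90, 0.73 and -0.42 in supplemented tumours 1 to 5. Control tumour 3 was the highest, followed by deficient tumour 2 and supplemented tumour 4, and in each of these 3 tumours all 28 mitosis genes were above their own mean. Supplemented tumours 1 and 3 and deficient tumour 3 were the lowest, with 1, 0 and 2 of the 28 genes above their own mean. The group means were -0.021 ± 0.67 in deficient, 0.35 ± 0.64 in control and -0.33 ± 0.72 in supplemented tumours (SD, n = 5 each), and the 3 ranges overlapped. Over the 12 replication genes the group means lay closer together, at 0.019 ± 0.52 in deficient, 0.12 ± 0.49 in control and -0.14 ± 0.52 in supplemented tumours (SD, n = 5 each). Over the 4 G1/S genes they were -0.012 ± 0.32 in deficient, -0.020 ± 0.35 in control and 0.033 ± 0.41 in supplemented tumours (SD, n = 5 each).

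**Figure D2:**
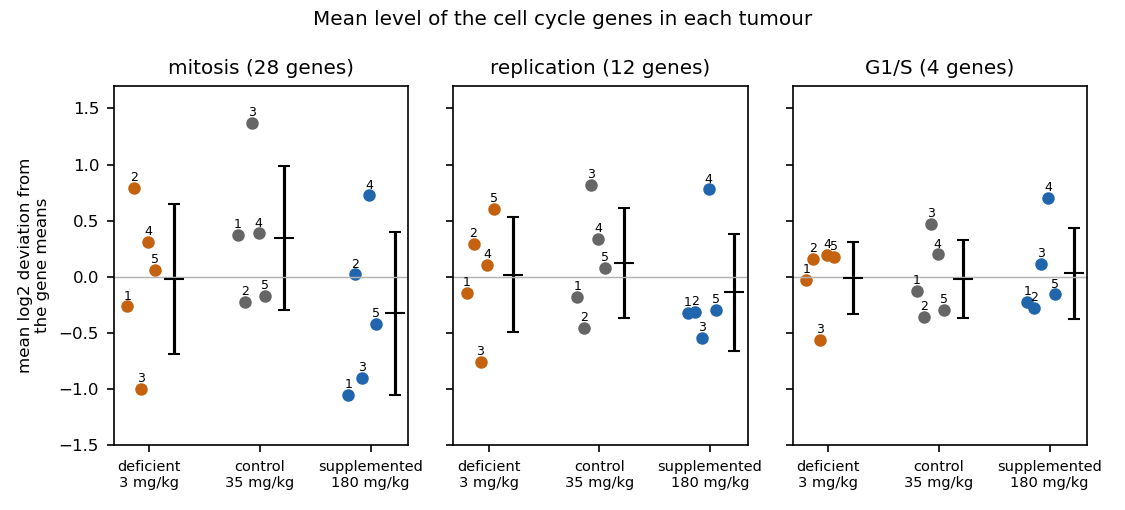
Mean log2 deviation from the gene means (y axis) in each tumour, by early diet (x axis), for 28 mitosis, 12 replication and 4 G1/S genes. Points are tumours labelled with their replicate number, and bars are the mean ± SD of 5 tumours; control tumour 3 is at 1.37 for mitosis genes, and the diets overlap in every panel.

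Single genes followed the same tumours. Control tumour 3 had the highest level of 29 of the 44 genes, and deficient tumour 3 and supplemented tumour 1 had the lowest level of 15 and 13 genes. The median gene spanned 2.99 log2 units over the 15 tumours among mitosis genes, 1.93 among replication genes and 1.62 among G1/S genes, against 1.42 over all 21011 tested probes. Of the 18 genes well above background on all 15 arrays, Ube2c, the ubiquitin-conjugating enzyme of the anaphase-promoting complex, spanned the most, 4.03 log2 units between control tumour 3 and supplemented tumour 1, and Cdk2 the least, 0.84. Those 18 were 40.9% of the 44 genes, against 54.6% of all tested probes, and 11 genes were well above background on only 5 to 9 arrays, where low values have little signal.

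**Figure D3:**
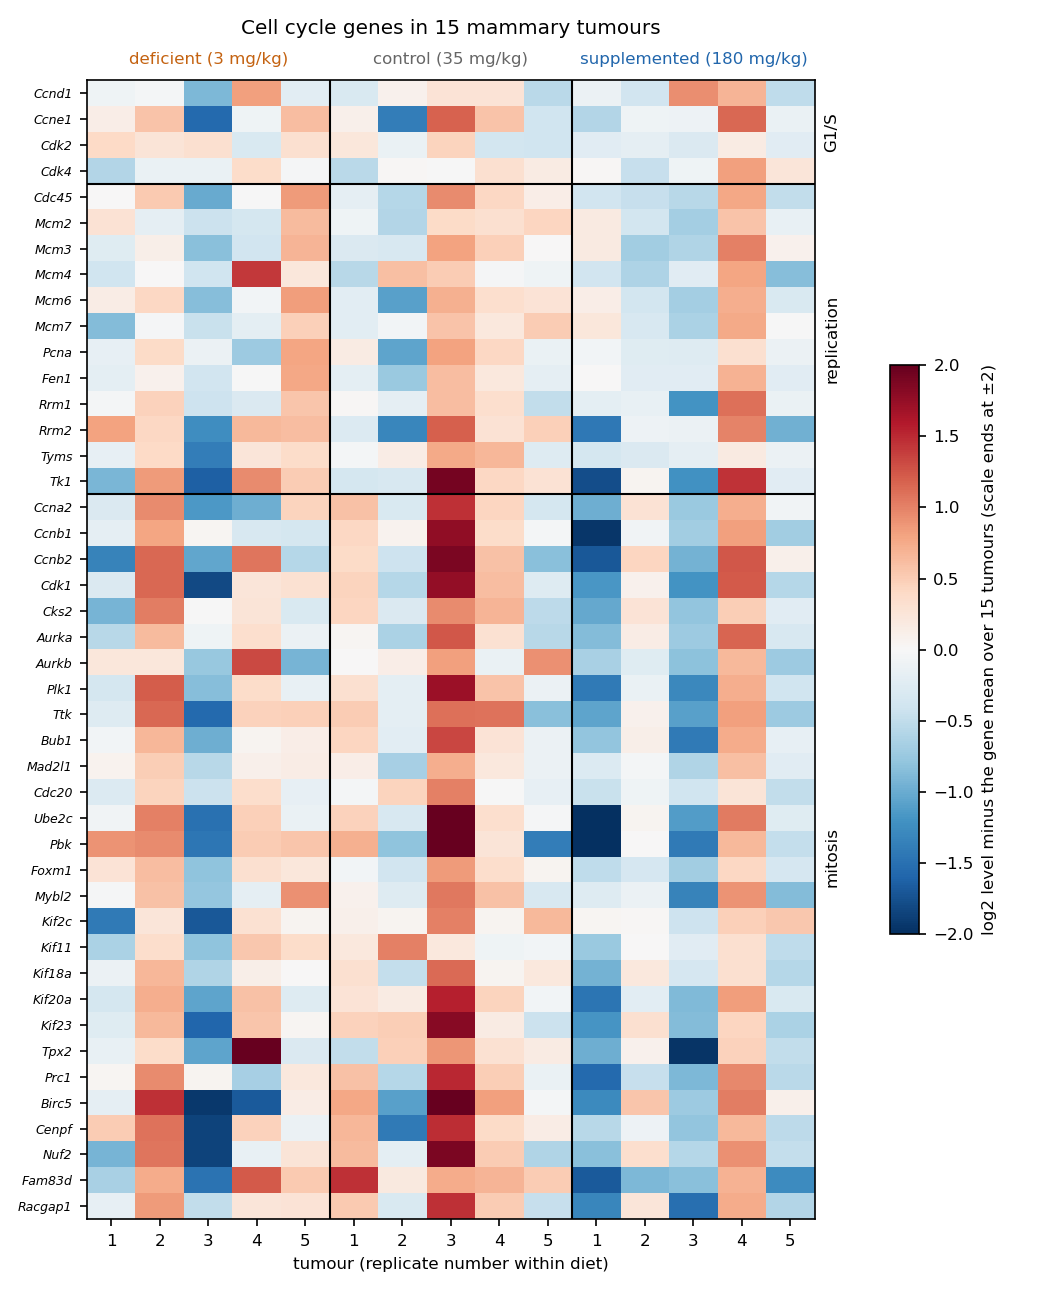
Log2 level of each of 44 genes (rows) in each of 15 tumours (columns, by diet and replicate number), as the difference from the gene's mean; colours end at ±2. Most mitosis rows are red in control tumour 3, deficient tumour 2 and supplemented tumour 4, and blue in supplemented tumours 1 and 3 and deficient tumour 3.

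Between supplemented and control tumours, mitosis genes averaged lower in the supplemented group, with a median difference of -0.61 log2 units, but no gene passed the test. Of the 44 genes, 40 had a negative difference (supplemented minus control), against 51.2% of all tested probes, with a median of -0.50 against -0.0067 for all probes. All 28 mitosis genes tested were lower, with a median of -0.61, and 21 of them were lower by 0.5 or more, against 4.11% of all probes. Mitosis genes varied together across tumours (median pairwise r 0.76) and more widely than all probes (median SD 0.81 against 0.39). The 28 are therefore not independent observations in any comparison, and shares of all probes at the 0.5 cut are not like for like. Replication genes were lower in 11 of 12 cases (median -0.19, but 0.029 under normexp background correction and -0.094 in the authors' deposited values). Of the G1/S genes 3 of 4 were higher, against 48.8% of all probes (median 0.075). For Ccnd1, Ccne1, Mcm4 and Pcna, with 2 tested probes each, the dimmer probe differed in the opposite direction. In limma's moderated test no probe of the 21011 had an adjusted p under 0.05 (percent called 0), and 2 of the 44 genes had an unadjusted p under 0.05, against 1.98% of all probes. Those 2 were Ccnb1 and Fam83d. Fam83d, also counted above among the mitosis genes lower by 0.5 or more, was not well above background on any supplemented array. The groups overlapped for all 44 genes, against 0.148% of probes lower and 0.209% higher without overlap.

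With control tumour 3 left out, 26 of the 28 mitosis genes were lower, 11 of them by 0.5 or more, and the median difference was -0.37; over all 44 genes the count was 34 and the median -0.26. Without supplemented tumour 3, 13 mitosis genes were lower by 0.5 or more. With normexp background correction 20 of 28 mitosis genes were lower, 7 of them by 0.5 or more, and the median was -0.22. In the authors' deposited values 28 of 28 were lower, 3 of them by 0.5 or more, with a median of -0.23. Normexp added an offset of 50, and the deposited values follow the median signal before background subtraction. A cut of 0.5 log2 units is therefore not like for like between these scales. Within slides, where 1 or 2 tumours stand for each diet, the mean over mitosis genes differed by -1.43, -0.22, -0.65 and -0.53 on slides 1 to 4. Over replication genes it differed by -0.14, 0.026, -0.039 and -0.50. Dim probes leaned the same way in general: in the dimmest tercile of mean level, 60.2% of all probes and 14 of 14 cell cycle genes were lower, against 49.3% of all probes and 22 of 22 genes in the middle tercile and 44.2% and 4 of 8 in the brightest tercile. The part of signal strength in the difference was not tested.

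Fam83d was at -4.53, -3.75, -3.69, -2.16 and -4.11 in supplemented tumours 1 to 5, against -1.39, -2.66, -2.11, -2.17 and -2.36 in control tumours 1 to 5. Of the supplemented tumours, 1 lay within the control range. The mean was -3.65 ± 0.90 in supplemented and -2.14 ± 0.47 in control tumours (SD, n = 5 each), and the adjusted p from limma was 1.00. The probe was not well above background on any supplemented array. It passed the filter through 3 control and 2 deficient arrays, so the fitted difference is not exact. With each supplemented signal raised to at least the dimmest signal counted as detected on its array, the control mean was 1.05-fold higher. That mean includes control arrays on which the probe was not well above background, so 1.05 is not a strict bound. Under normexp the fitted difference was 0.18, opposite in sign to the one on processed intensities.

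Ccnb1 was at -2.86, -0.99, -1.61, -0.10 and -1.62 in supplemented tumours 1 to 5, against -0.51, -0.85, 0.85, -0.56 and -0.96 in control tumours 1 to 5. All supplemented tumours but tumour 4 were below every control tumour. The means were -1.44 ± 1.01 and -0.41 ± 0.73 (SD, n = 5 each), a difference of -1.03 (limma, 95% interval -1.96 to -0.10, unadjusted p = 0.0315, adjusted p = 1.00). It was negative on all 4 slides, and it was -0.28 under normexp and -0.38 in the authors' deposited values. Plk1, the polo-like kinase that drives centrosome maturation and mitotic exit, was at 0.43, 1.71, 0.55, 2.57 and 1.44 in supplemented tumours, against 2.16, 1.64, 3.56, 2.42 and 1.73 in control tumours. Supplemented tumours 1, 3 and 5 were below every control tumour, and the difference was -0.96 (limma, 95% interval -1.94 to 0.01, unadjusted p = 0.0531, adjusted p = 1.00). Kif20a, a kinesin of cytokinesis, was at -0.57, 0.69, 0.02, 1.73 and 0.59 in supplemented tumours, against 1.17, 1.06, 2.45, 1.34 and 0.84 in control tumours. Again only supplemented tumour 4 reached the control range, and the difference was -0.88 (limma, 95% interval -1.78 to 0.02, unadjusted p = 0.0552, adjusted p = 1.00).

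Cdk1, the kinase of mitotic entry, was at 1.85, 3.10, 1.82, 4.23 and 2.43 in supplemented tumours, against 3.45, 2.45, 4.77, 3.62 and 2.75 in control tumours. Supplemented tumours 1, 3 and 5 were below every control tumour, and the difference was -0.72 (limma, 95% interval -1.92 to 0.47, unadjusted p = 0.218), or -1.19 under normexp. The other mitosis genes differed by between -1.01 for Pbk, well above background on 7 arrays, and -0.16 for Mad2l1, a spindle checkpoint protein. Foxm1, a transcription factor of the mitotic programme, averaged 0.28 ± 0.42 in supplemented and 0.74 ± 0.47 in control tumours, and Mybl2, its partner on MuvB, differed by -0.56.

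Mcm2 was at -0.93, -1.48, -1.79, -0.53 and -1.26 in supplemented tumours, against -1.19, -1.70, -0.73, -0.79 and -0.68 in control tumours, a difference of -0.18 (limma, 95% interval -0.76 to 0.40). Pcna, the sliding clamp of DNA polymerase, was at 2.67, 2.48, 2.45, 3.04 and 2.60 in supplemented tumours, against 2.88, 1.654, 3.52, 3.12 and 2.59 in control tumours. The supplemented tumours all lay inside the control range, and the difference was -0.11 (limma, 95% interval -0.79 to 0.57), or -0.59 under normexp. Tk1 had the most negative difference among replication genes, -0.74 (limma, 95% interval -2.06 to 0.59). Its probe was well above background on only 1 supplemented and 2 control arrays. Ccnd1, which encodes cyclin D1, was at 6.77, 6.503, 7.82, 7.57 and 6.38 in supplemented tumours, against 6.59, 6.97, 7.17, 7.16 and 6.34 in control tumours, a difference of 0.16 (limma, 95% interval -0.53 to 0.86). Supplemented tumours 3 and 4 were above every control tumour and the others were not. The dimmer tested probe of Ccnd1 had a difference of the opposite sign. Cdk4, the partner of cyclin D1, was at 2.30, 1.81, 2.19, 3.09 and 2.51 in supplemented tumours, against 1.73, 2.29, 2.27, 2.60 and 2.44 in control tumours, a difference of 0.11 (limma, 95% interval -0.40 to 0.62). Under normexp the Ccnd1 and Cdk4 differences were -0.60 and -0.44, and that of Mcm2 was 0.081.

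**Figure D4:**
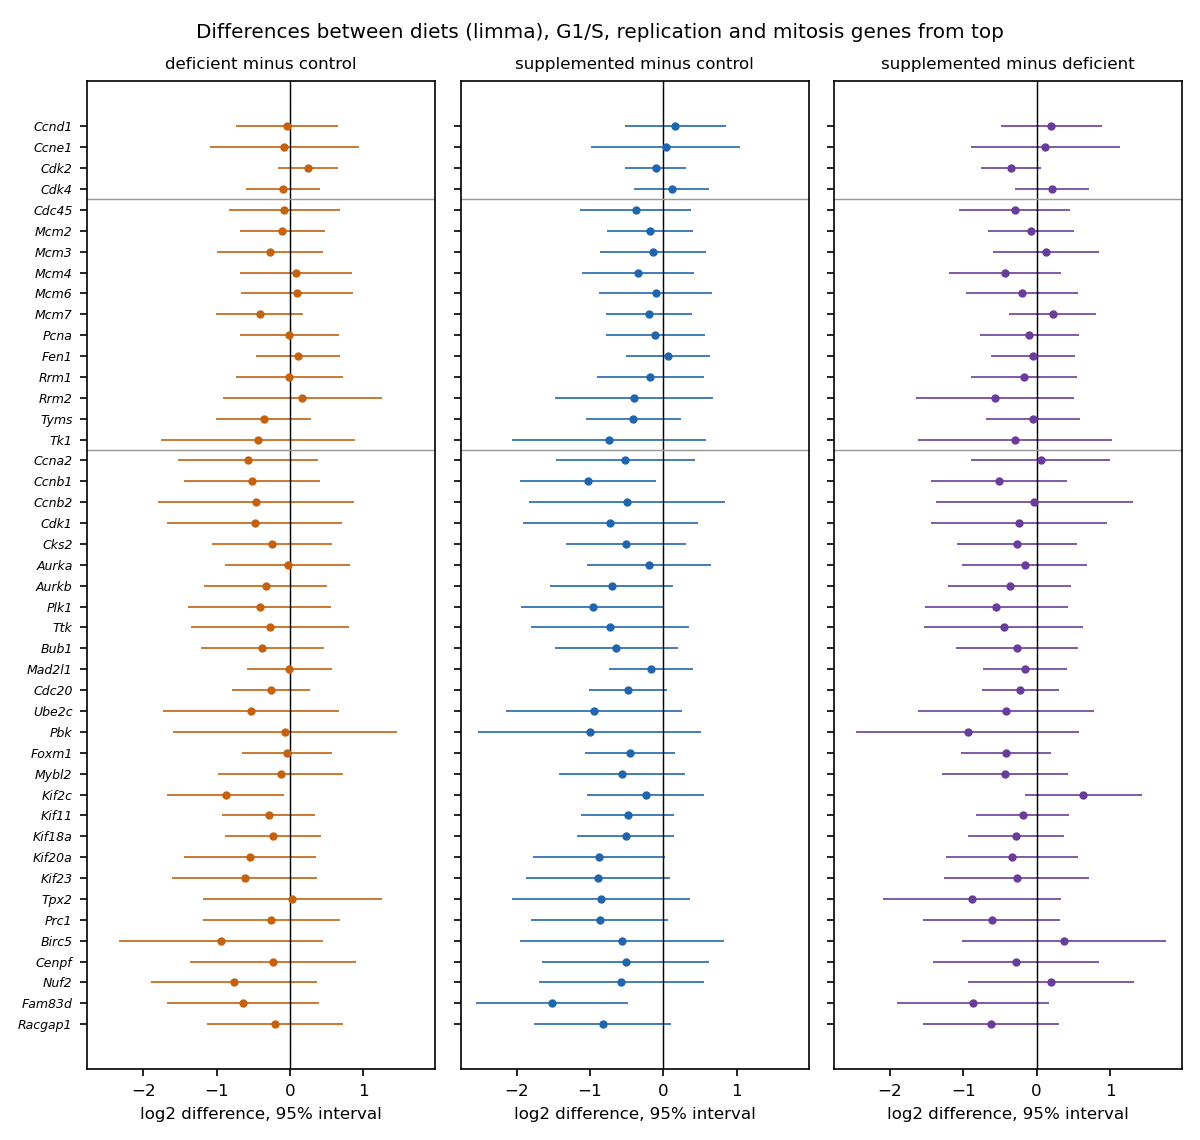
Log2 difference (x axis) with its 95% interval from limma for each of 44 genes (rows, G1/S, replication and mitosis from the top) in each of the 3 pairs of diets, with deficient minus control on the left. In the middle panel all 28 mitosis points are left of 0, and most intervals cross 0; Fam83d was not well above background on any supplemented array, so its points against that group are not exact.

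Between deficient and control tumours the mitosis genes also averaged lower in the deficient group, by less, and no gene passed the test. A lower level was found for 38 of the 44, against 50.7% of all probes (median -0.25). Mitosis genes were lower in 27 of 28 cases (median -0.31), 9 of them by 0.5 or more, against 4.86% of all probes. Replication genes were lower in 8 of 12 cases (median -0.041), and the 6 genes that were higher in all compare with 49.3% of probes. For Ccne1, Mcm3, Pcna, Rrm2 and Ttk the dimmer tested probe differed in the opposite direction. No probe was called (percent called 0; lowest adjusted p over all probes 0.444), and 1 of the 44 genes had an unadjusted p under 0.05, against 3.91% of all probes. No gene's groups were free of overlap, against 0.219% of probes lower and 0.171% higher. Under normexp the medians were -0.081 over the 44 genes and -0.12 over mitosis genes, and in the authors' deposited values -0.099 and -0.15. The direction did not hold within slides: the mean over mitosis genes differed by -0.64, 1.02, -1.72 and -0.046 on slides 1 to 4. Without deficient tumour 3 only 25 of 44 genes were lower, and the median was -0.048; without control tumour 3 the median over mitosis genes was -0.088. The comparison shares its control tumours with the one above.

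Kif2c, a kinesin that takes apart microtubule ends at kinetochores, was at -3.65, -2.001, -3.93, -1.92 and -2.19 in deficient tumours 1 to 5, against -2.14, -2.19, -1.23, -2.19 and -1.59 in control tumours 1 to 5. Deficient tumours 1 and 3 were below every control tumour, and deficient tumours 2 and 4 lay among the controls. Deficient tumour 5 was just below the lowest control tumour (-2.1875 against -2.1858). The difference was -0.87 (limma, 95% interval -1.67 to -0.074, unadjusted p = 0.0342, adjusted p = 0.987), on a probe well above background on 2 deficient and 4 control arrays; it was -0.074 under normexp and -0.20 in the authors' deposited values. Birc5, which encodes survivin of the chromosomal passenger complex, was at 0.66, 2.29, -1.09, -0.84 and 0.99 in deficient tumours, against 1.62, -0.25, 2.88, 1.67 and 0.80 in control tumours. Deficient tumours 3 and 4 were below every control tumour and the difference was -0.94 (limma, 95% interval -2.33 to 0.45, unadjusted p = 0.172), or -0.61 under normexp. Nuf2, a subunit of the kinetochore complex that holds microtubules, was at -1.53, 0.47, -2.45, -0.75 and -0.35 in deficient tumours, against 0.04, -0.80, 1.28, -0.09 and -1.20 in control tumours. Its difference was -0.76 (limma, 95% interval -1.89 to 0.37, unadjusted p = 0.171), with deficient tumours 1 and 3 below every control tumour; under normexp it was -0.27.

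Mcm7, a helicase subunit, was at -0.98, -0.14, -0.56, -0.32 and 0.35 in deficient tumours, against -0.33, -0.17, 0.45, 0.09 and 0.38 in control tumours, a difference of -0.41 (limma, 95% interval -1.002 to 0.18, unadjusted p = 0.157), but -0.024 under normexp and -0.047 in the authors' deposited values. Cdk2, the kinase of cyclins E and A, was at 1.08, 0.92, 0.99, 0.37 and 0.99 in deficient tumours, against 0.90, 0.53, 1.11, 0.31 and 0.27 in control tumours, a difference of 0.25 (limma, 95% interval -0.17 to 0.66, unadjusted p = 0.226). All deficient tumours but tumour 4 lay at the upper end of the control range. Fen1, the flap endonuclease of lagging-strand synthesis, differed by 0.11 (limma, 95% interval -0.46 to 0.69). Ccnb1 was at -1.09, -0.13, -0.89, -1.23 and -1.27 in deficient tumours, a difference from control of -0.52 (limma, 95% interval -1.44 to 0.41), or -0.25 under normexp. Cdk1 was at 2.72, 4.15, 1.20, 3.26 and 3.31 in deficient tumours, a difference of -0.48 (limma, 95% interval -1.68 to 0.71). Ccnd1 and Mcm2 differed by -0.038 and -0.10, within intervals of -0.73 to 0.65 and -0.69 to 0.48. Pcna averaged 2.75 ± 0.58 in deficient and 2.75 ± 0.70 in control tumours (SD, n = 5 each), a difference of -0.0072 whose sign changed under 8 settings beside the tumours left out.

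Between supplemented and deficient tumours, 35 of 44 genes were lower in the supplemented group, against 50.1% of all probes, with a median of -0.26. The 9 genes that were higher compare with 49.9% of probes. Mitosis genes were lower in 24 of 28 cases (median -0.28), 7 of them by 0.5 or more, against 6.86% of all probes, and replication genes in 10 of 12 (median -0.14). A dimmer tested probe of Ccne1, Mcm2, Mcm3, Rrm1 and Racgap1 differed in the opposite direction. No probe was called (percent called 0; lowest adjusted p 0.615), none of the 44 genes had an unadjusted p under 0.05, against 7.05% of all probes, and none was free of overlap, against 0.643% of probes lower and 0.857% higher. Under normexp 25 of the 44 genes were lower, with medians of -0.019 over all of them and -0.0014 over mitosis genes; in the authors' deposited values the medians were -0.063 and -0.092. Within slides the mean over mitosis genes differed by -0.79, -1.23, 1.07 and -0.48. Without deficient tumour 2 the median over mitosis genes was -0.11, and without deficient tumour 3 it was -0.57.

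Cdk2 was at 0.45, 0.50, 0.39, 0.83 and 0.44 in supplemented tumours, against the deficient values above, a difference of -0.35 (limma, 95% interval -0.76 to 0.07, unadjusted p = 0.0936, adjusted p = 0.729). All 5 supplemented tumours were below the deficient tumours other than tumour 4. Tpx2 was at -1.85, -0.79, -2.83, -0.41 and -1.37 in supplemented tumours, against -1.03, -0.51, -1.93, 1.79 and -1.16 in deficient tumours, a difference of -0.89 (limma, 95% interval -2.10 to 0.33). Without deficient tumour 4, which stood highest, the difference was -0.30, and under normexp it was 0.00496. Fam83d was well above background on no supplemented and 2 deficient arrays, which leaves no fold to give, though it is counted among the lower genes above. Foxm1 was at 0.07, 0.24, -0.13, 0.99 and 0.25 in supplemented tumours, against 0.84, 1.20, -0.23, 0.89 and 0.80 in deficient tumours, a difference of -0.42 (limma, 95% interval -1.03 to 0.19). Deficient tumour 3 was below every supplemented tumour, and deficient tumour 2 was above every one. Deficient tumours 1, 4 and 5 were above every supplemented tumour but tumour 4. Kif2c was at -2.20, -2.21, -2.65, -1.76 and -1.70 in supplemented tumours, a difference from deficient of 0.63 (limma, 95% interval -0.16 to 1.43, unadjusted p = 0.111), or 0.29 under normexp. The other named genes differed by 0.21 (Cdk4), 0.20 (Ccnd1), -0.51 (Ccnb1), -0.24 (Cdk1), -0.079 (Mcm2) and -0.10 (Pcna); under normexp Ccnb1, Cdk1 and Pcna differed by -0.031, -0.81 and -0.61. A test over all 3 diets at once (limma's F) called no probe, and 1 of the 44 genes had an unadjusted p under 0.05, against 847 of all 21011 probes (4.03%).

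The genes varied together across tumours. The median Pearson r between pairs of mitosis genes over the 15 tumours was 0.76, between replication genes 0.66 and between a mitosis and a replication gene 0.57. It was 0.27 among G1/S genes and 0.00195 between pairs of all tested probes. These correlations share the arrays and their scaling. Ckap2, a spindle protein that is not in the set, served as a comparator because Mki67, the usual proliferation marker, had no matched probe; it was taken, after the files had been seen, as the first other proliferation gene on a list that was well above background on all arrays. Ckap2 was at 0.025, 1.38, -0.84, 0.74 and 0.013 in deficient, 0.70, -0.41, 1.78, 1.15 and -0.87 in control and -1.08, 0.17, -1.14, 1.38 and -0.19 in supplemented tumours 1 to 5. Control tumour 3, deficient tumour 2 and supplemented tumour 4 were again the highest.

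Of the 44 correlations with Ckap2, all were positive and 34 had an adjusted p under 0.05 (permutation test, two-sided, Benjamini-Hochberg over the 44): 25 of 28 mitosis genes, 8 of 12 replication genes and, of the G1/S genes, Ccne1. No share of all tested probes correlated with Ckap2 is given here, so these counts have no background to be read against. The highest were Ttk, a spindle checkpoint kinase (r = 0.94, rho = 0.93, permutation p = 2e-05, adjusted p = 8e-05), Racgap1, a cytokinesis GTPase activator (r = 0.94, rho = 0.93, permutation p = 1e-05, adjusted p = 5.5e-05), and Plk1 (r = 0.94, rho = 0.90, permutation p = 1e-05, adjusted p = 5.5e-05); 1e-05 is the smallest p these permutations can give. The lowest were Cdk4 (r = 0.22, rho = 0.075, permutation p = 0.439, adjusted p = 0.439), Ccnd1 (r = 0.34, rho = 0.36, permutation p = 0.218, adjusted p = 0.223) and Mcm2 (r = 0.36, rho = 0.34, permutation p = 0.193, adjusted p = 0.202). Without the 2 tumours farthest from the Ckap2 median, control tumour 3 and deficient tumour 2, 30 of the 44 had an adjusted p under 0.05. With levels taken relative to their diet mean the count was 34. With normexp it was 20, with 1 of 12 replication genes among them, and 38 of the 44 correlations were positive.

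**Figure D5:**
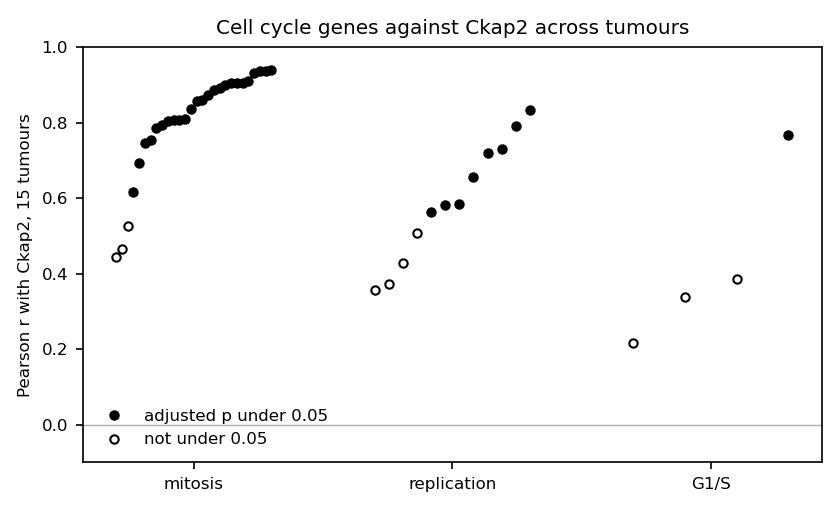
Pearson r with Ckap2 over 15 tumours (y axis) for each gene, ordered within mitosis, replication and G1/S genes (x axis). Filled points had an adjusted permutation p under 0.05; mitosis points reach 0.94, and Cdk4 is lowest at 0.22.

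Other genes of the pathway were read beside these. Of 75 further proliferation genes 41 were tested, and 36 were lower and 5 higher in supplemented than in control tumours (median -0.25), while 26 were lower and 15 higher in deficient than in control tumours (median -0.067); none was called. The smallest p belonged to the kinesin Kif22 (-0.86) and the kinetochore gene Spc25 (-0.86) in supplemented minus control, and to the histone gene H2ax (-0.66) and the condensin gene Smc4 (0.30) in deficient minus control. In supplemented minus deficient they belonged to the kinesin Kif15 (-0.74) and the helicase gene Mcm8 (-0.59), with 31 of the 41 lower (median -0.17). Spc25 and Mcm8 were each well above background on only 6 arrays, 1 of them supplemented, so their differences rest on little signal. Over all probes, 51.2% were lower in supplemented minus control, 50.7% in deficient minus control and 50.1% in supplemented minus deficient. Of 22 inhibitors and repressors of the cycle 16 were tested, and 6 were lower and 10 higher in supplemented than in control tumours (median 0.095), while 10 were lower and 6 higher in deficient than in control tumours (median -0.060); none was called. Cdkn1a, which encodes the CDK inhibitor p21, averaged 3.07 ± 0.39 in deficient and 3.68 ± 0.32 in control tumours (SD, n = 5 each), a difference of -0.61 (limma, unadjusted p = 0.013, adjusted p = 0.987). Cdkn1b, which encodes p27, averaged 3.15 ± 0.26 in deficient and 2.54 ± 0.50 in control tumours (SD, n = 5 each), a difference of 0.61 (limma, unadjusted p = 0.0151, adjusted p = 0.987). Between supplemented and control tumours these differed by -0.0098 and 0.089, and the smallest p there belonged to Rb1 (0.64), which encodes the retinoblastoma protein, and the antiproliferative gene Btg1 (0.43). Between supplemented and deficient tumours Cdkn1a differed by 0.60 (limma, unadjusted p = 0.0143, adjusted p = 0.678) and Cdkn1b by -0.52 (limma, unadjusted p = 0.0337, adjusted p = 0.703).

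Marker lists of other cell types were read beside these results, and none of their genes was called. All 6 milk secretion genes tested, of 6 listed, were higher in supplemented tumours (median 0.67), with a mean level between 1.47 and 4.38 in supplemented and between 0.46 and 3.80 in control tumours. Of the basal epithelial genes tested, 5 of 6 were lower (median -0.32), with a mean level between 1.40 and 2.49 in supplemented and between 1.72 and 3.24 in control tumours. Of the mast cell genes tested, 4 of 5 were lower (median -0.92), with a mean level between -2.35 and 1.18 in supplemented and between -0.027 and 1.72 in control tumours. None of these 5 was well above background on all 15 arrays, so their medians rest on little signal. Of all probes, 51.2% were lower in supplemented minus control and 50.7% in deficient minus control. Between deficient and control tumours, 5 of 6 milk secretion genes were higher (median 1.03) and 4 of 5 mast cell genes lower (median -1.30), and all 4 erythrocyte genes tested, of 6 listed, were higher (median 1.33), with a mean level between 0.85 and 3.02 in deficient and between -1.39 and 1.35 in control tumours. In supplemented minus control the luminal list had a median of -0.013, with a mean level between 3.52 and 3.91 in supplemented and between 3.55 and 3.96 in control tumours. In supplemented minus deficient, all 4 erythrocyte genes tested were lower (median -2.01), each with an unadjusted p under 0.05, against 7.05% of all probes. Their mean level lay between -1.16 and -0.19 in supplemented and between 0.85 and 3.02 in deficient tumours. Only 2 of the 4 were well above background on all 15 arrays. The part of these lists in the cell cycle differences was not tested.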

How the data were processed

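RNA of 15 tumours was read on 1-colour Agilent rat arrays. The scanner files hold intensities that Agilent Feature Extraction made, background-subtracted and not yet normalized between arrays, in version 11.5.1.1 per the file headers and 15.5 per the submitters' processing notes. The authors also deposited 1 table of log2 values for 30002 probes; each column correlated between 0.984 and 1.000 with that array's log2 median signal, and column medians lay between 7.09 and 7.10. Its normalization is not given in the sources used here.

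Levels were the log2 of the processed intensity, deposited per array, minus that array's 75th percentile; control spots and outlier spots were left out, no spot was saturated, and repeated spots of a probe were averaged. Of 41012 probes, 17502 (42.7%) were named through RefSeq accessions (GRCr8), and 21011 were well above background on 5 or more arrays. Diets were compared with limma 3.58.1 in R 4.3.3 over all 15 arrays (12 residual degrees of freedom), with Benjamini-Hochberg adjustment over all tested probes, after a test on simulated data. The number of arrays limits the precision. Correlations used 100000 permutations in numpy 2.4.6, with ranks from scipy 1.17.1. Promoters came from RefSeq.

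The members, gene lists and tests were chosen with earlier results of these data known. For each comparison named genes are, by smallest p, the first 4 of those lower and the first 2 of those higher, plus Ccnd1, Ccnb1, Cdk1, Mcm2 and Pcna; of the other proliferation genes and inhibitors, the 2 with the smallest p; for correlation, the 3 highest and 3 lowest r; for promoters, the first 2 mitosis and replication genes by p. Top2a and Mki67, also planned, had no matched probe. Ckap2 replaced Mki67 after the files were seen, and normexp used the median signal, since the mean signal column is absent. Alternatives were normexp, quantile scaling, the deposited table, other filters, slide, scan day and replicate blocks, within-slide values, array weights, brightness as a covariate, the 3 dimmest arrays or each tumour left out, and the mean over a gene's probes. The remaining cell-type lists were T cells (3 of 7 tested, median 0.023 in supplemented minus control), macrophages (5 of 6, -0.24), fibroblasts (5 of 6, -0.27), endothelium (2 of 5, -0.037), adipocytes (2 of 6, 0.66), erythrocytes (4 of 6, -0.80) and skeletal muscle (1 of 6, 0.41), none called. Replicate numbers were checked for pairing: deviations of same-numbered arrays correlated between -0.28 and 0.22, so the numbers were not taken as pairs; numbers 1, 2 and 5 each lie on 1 slide, which the slide block covers.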

Additional observations from a re-analysis of the deposited data

Results flagged for a closer look

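Of 60 groups of 5 tumours examined (each named gene and each class mean in each diet), 6 held a tumour far from the other four by Dixon's criterion, where chance flags about 1 in 20, or 3 of 60. Ccnb1 was 0.85 in control tumour 3, above the other control tumours at -0.96 to -0.51. Cdk2 was 0.37 in deficient tumour 4, below the others at 0.92 to 1.08, and 0.83 in supplemented tumour 4, above the others at 0.39 to 0.50. Fen1 was 3.95 in supplemented tumour 4, above the others at 3.03 to 3.27. Foxm1 was -0.23 in deficient tumour 3, below the others at 0.80 to 1.20. The mean deviation of the replication genes was 0.78 in supplemented tumour 4, above the others at -0.55 to -0.29.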

How the results depend on the processing

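No setting but array weights and 1 tumour left out called any probe: array weights called 1 probe in deficient minus control and 1 in supplemented minus deficient, and leaving out 1 tumour called 0 to 1 in supplemented minus deficient. Under every setting run the median over the tested cell cycle genes in supplemented minus control stayed negative, and between 29 (of fewer genes, under the stricter filter) and 43 genes were lower. The count of mitosis genes lower by 0.5 or more in that comparison was 7 under normexp and 3 in the deposited values, on unlike scales. It was 11 to 26 with 1 tumour left out, control tumour 3 giving the lowest. With the stricter filter (10 or more arrays) 18 of 18 mitosis genes were lower. Replicate numbers 1, 2 and 5 each lie on 1 slide, numbers 3 and 4 on 2, and the labels give the numbers no meaning; with them as a block the median was -0.50 in supplemented minus control, -0.25 in deficient minus control and -0.26 in supplemented minus deficient, and with slide as a block -0.54, -0.33 and -0.19; neither block called a probe.

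Within slides the medians over all genes, mitosis genes and replication genes in deficient minus control were 1.05, 1.16 and 0.74 on slide 2 and -1.43, -1.74 and -1.20 on slide 3. In supplemented minus deficient they were -1.08 and -1.29 (all and mitosis) on slide 2, 1.05, 1.05 and 1.13 on slide 3, and -0.84 (replication) on slide 4. In supplemented minus control the mitosis median on slide 1 was -1.52. Signs also turned for the replication median in deficient minus control (0.016 on slide 1, 0.35 on slide 4) and in supplemented minus control (0.044 on slide 3), and for the median over all genes in deficient minus control (0.12 on slide 4). The causes were not tested.

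Outside single slides, these signs of medians and named genes turned. The replication median was 0.029 under normexp in supplemented minus control; in deficient minus control it was 0.10 with array weights, 0.020 with brightness as a covariate and -0.26 to 0.13 with 1 tumour left out, and in supplemented minus deficient -0.33 to 0.026 with 1 tumour left out. Normexp gave, in supplemented minus control, 0.18 for Fam83d, -0.60 for Ccnd1, -0.44 for Cdk4 and 0.081 for Mcm2; in supplemented minus deficient, 0.17 for Fam83d, 0.0050 for Tpx2, -0.26 for Ccnd1, -0.17 for Cdk4 and 0.11 for Mcm2; and 20 genes correlated with Ckap2. Pcna in deficient minus control was 0.020 under normexp, 0.0099 under quantile scaling, 0.14 in the deposited values, 0.027 with slide as a block, 0.12 with array weights, 0.21 with brightness as a covariate, 0.037 without the 3 dimmest arrays and 0.10 as a mean over probes, which also gave 0.030 in supplemented minus control. Mcm2 in supplemented minus deficient was 0.019 under quantile scaling, 0.034 in the deposited values, 0.022 with slide as a block and 0.0044 as a mean over probes. With 1 tumour left out, deficient minus control ran from -0.26 to 0.17 for Ccnd1, -0.069 to 0.28 for Fen1, -0.27 to 0.0031 for Mcm2 and -0.28 to 0.19 for Pcna, and 25 to 41 genes were lower. Supplemented minus control ran from -0.038 to 0.32 for Ccnd1, -0.065 to 0.26 for Cdk4 and -0.38 to 0.084 for Pcna. Supplemented minus deficient ran from -0.0013 to 0.43 for Ccnd1, -0.67 to 0.064 for Cdk1, -0.25 to 0.081 for Mcm2 and -0.29 to 0.087 for Pcna. In the 150-base window 1 mitosis promoter kept an E2F site and 0 replication promoters a CHR.

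Without a filter on dim probes the median of all probes moved to 0.11 in deficient minus control and -0.14 in supplemented minus deficient. With 5 tumours a diet, the median 95% interval of a mitosis gene reached 0.93 log2 units to either side, against 0.51 over all probes. Dim probes such as that of Fam83d have the least signal over background.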
